A study of Mus musculus with 2 samples.

Results

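Interferon-stimulated T cells are T cells whose transcripts include those of genes switched on by type I interferon. They were taken here from 2 single-cell RNA libraries of immune cells, sorted on CD45, from tumours that the colon carcinoma line MC38 formed under the skin of wild-type C57BL/6 mice. The first library came from mice given photobiomodulation (PBM), a treatment with light, daily from day 7, and the other from control mice; both groups carried the same tumour, and the tumours of both were taken on day 14. Sorted cells were pooled within a condition, the number of animals in a pool is not given in the labels, and each group is 1 library. Treatment, pool and library therefore cannot be told apart, no test was made, and all intervals below are 95% ones and cover counting error alone. The members were chosen by their own counts of unique molecular identifiers (UMIs, 1 per captured transcript): at least 2 UMIs of Cd3d, Cd3e and Cd3g together, at least 3 UMIs of Ifit1, Ifit3, Rsad2 and Oasl1 together, and under 0.1% of the cell's UMIs each from C1qa, C1qb and C1qc and from Cd79a, Cd79b and Ms4a1. This selected 747 of 25200 barcodes, 677 of 13962 in the PBM library and 70 of 11238 in the control library. They were set against the T cells of the same library that met the other conditions and had no UMI of the 4 marker genes, 4344 PBM and 2796 control cells, called sum-0 T cells below.

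Type I interferons bind the receptor made of IFNAR1 and IFNAR2 on nearly every cell. Receptor-bound kinases then activate a complex of transcription factors, with IRF9 among its subunits, which switches on genes that carry an interferon-stimulated response element (ISRE) in their promoter. The products include IFIT proteins, which bind foreign RNA, viperin (Rsad2), which makes a chain-terminating nucleotide, OAS proteins, which sense double-stranded RNA, and the ubiquitin-like modifier ISG15. Interferon gamma acts through another receptor and shares many of these targets, among them guanylate-binding proteins and MHC class I genes. In tumours such T cells have been described as a state that CD4 and CD8 T cells can both take.

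The 2 libraries held 86159897 UMIs (PBM) and 104673228 UMIs (control), and 1991 barcode names occurred in both. Members had a median of 7437 UMIs in the PBM library and 7897 in the control library, against 5693 and 5480 UMIs in the sum-0 T cells. A deeper cell reaches 3 UMIs more easily, so shares are also given after each cell was thinned to 1000 UMIs, below which no cell lay. Mitochondrial UMIs made up 0.0380% of the members' UMIs in the PBM library and 0.203% in the control library, against 0.0349% and 0.179% in sum-0 T cells.

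The 4 marker genes are used by the selection, so their levels describe the members and support nothing further. Levels below are CPM, the UMIs of a gene per 1000000 UMIs of the cells summed. Ifit1 had 266 CPM in PBM members and 283 in control members. Ifit3 had 233 and 261, Oasl1 had 78.4 and 65.3, and Rsad2 had 56.4 and 140, in PBM and control members in turn. The most common number of marker genes per member was 2 of the 4, in 354 of 677 PBM members and 27 of 70 control members, while 42 PBM and 10 control members had all 4. The median sum was 4 in PBM members, with a highest value of 40, and 5 in control members, with a highest value of 60. Just inside the threshold, 262 PBM and 19 control T cells had a sum of 3, and just outside it 437 PBM and 40 control T cells had a sum of 2. Isg15, which the selection did not use, stood at 244 CPM in the PBM cells with a sum of 3 and at 145 in those with a sum of 2. In the control library it stood at 224 in cells with a sum of 3 and at 244 in those with a sum of 2, so these small neighbouring classes did not differ in the same direction in both libraries.

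The promoters of the marker genes and of leading genes outside the selection are shown because several share a short motif. Sequences are from RefSeq (build GRCm38.p6), 100 bases each within the window from 250 bases before to 50 bases after the annotated start, written 5′ to 3′ along the gene's own strand. Capitals mark matches to the ISRE core GAAANNGAAA or to its reverse complement TTTCNNTTTC, and overlapping matches were counted apart.
Ifit1, chr19:34640749-34640848, plus strand: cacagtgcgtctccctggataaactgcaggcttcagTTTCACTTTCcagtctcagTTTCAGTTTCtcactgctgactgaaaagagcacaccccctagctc
Ifit3, chr19:34583345-34583444, plus strand: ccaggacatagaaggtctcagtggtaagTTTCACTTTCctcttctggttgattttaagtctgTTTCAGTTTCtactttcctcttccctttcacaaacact
Rsad2, chr12:26456518-26456617, minus strand: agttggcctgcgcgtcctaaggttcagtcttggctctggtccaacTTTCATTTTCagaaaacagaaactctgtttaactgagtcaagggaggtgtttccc
Isg15, chr4:156200836-156200935, minus strand: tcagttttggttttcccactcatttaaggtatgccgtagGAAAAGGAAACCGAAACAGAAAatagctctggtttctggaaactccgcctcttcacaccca
Slfn5, chr11:82951902-82952001, plus strand: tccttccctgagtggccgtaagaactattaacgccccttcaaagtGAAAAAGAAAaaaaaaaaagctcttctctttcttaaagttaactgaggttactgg
Oas3, chr5:120777680-120777779, minus strand: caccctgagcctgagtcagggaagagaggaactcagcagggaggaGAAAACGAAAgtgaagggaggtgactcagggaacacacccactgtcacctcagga

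Counted from the annotated start, the matches in Ifit1 began at -104 and -85, those in Ifit3 at -156 and -122, and the one in Rsad2 at -120. Isg15 held 3 overlapping matches, which began between -78 and -66. The windows of Oasl1 and of Irf7, among the leading genes of the control library below, held no match. Among 97 type I interferon genes outside the selection with a promoter in the table, of 126 in the list, 44 (45.4%) held the core on either strand, against 1079 of all 27025 genes with a promoter (3.99%). A gene was counted if any of its promoters held the core. The core of the gamma-activated sequence, TTCNNNGAA, stood in promoters of 13 of the 97 (13.4%) and of 2582 of the 27025 genes (9.55%). These are letter matches and do not show that a factor was bound in these cells.

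Members were a larger share of T cells in the PBM library. They made up 677 of 6762 T cells, or 10.0% (9.31 to 10.8), in the PBM library and 70 of 3127, or 2.24% (1.75 to 2.82), in the control library. Cells with 1 or 2 marker UMIs followed the same order, with 25.7% of PBM T cells (24.7 to 26.8) and 8.35% of control T cells (7.40 to 9.37). Sums of 10 to 19 were found in 0.917% of PBM T cells (0.704 to 1.17) and 0.384% of control T cells (0.198 to 0.669), still without overlap. For all sums of 10 and above together the intervals overlapped: a sum of at least 10 was found in 1.12% of PBM T cells (0.887 to 1.41) and 0.704% of control T cells (0.441 to 1.06), and a sum of at least 20 in 0.207% (0.113 to 0.347) and 0.320% (0.154 to 0.587). Sums of 3 to 5 made up 69.9% of PBM members and 55.7% of control members. After thinning to 1000 UMIs per cell, at least 1 marker UMI was found in 10.0% of PBM T cells (9.32 to 10.8) and 3.10% of control T cells (2.52 to 3.77). With at least 2 marker UMIs after thinning, the shares were 1.94% in the PBM library (1.62 to 2.30) and 0.832% in the control library (0.544 to 1.22).

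**Figure D1:**
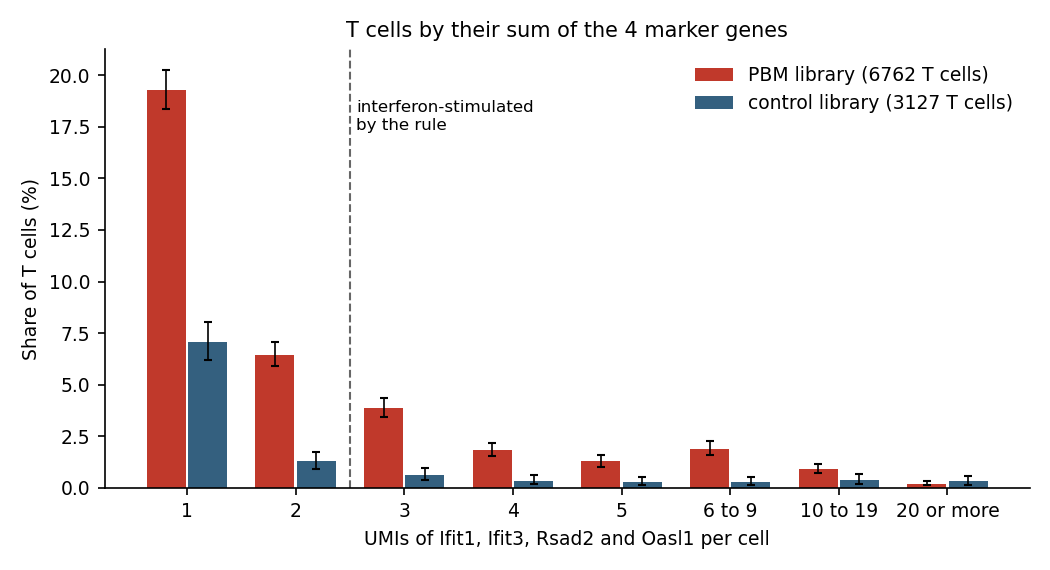
Share of T cells in percent (vertical axis) by the number of UMIs of the 4 marker genes in a cell (horizontal axis), in the PBM library (red) and the control library (blue), with exact binomial 95% intervals for counting error. T cells with a sum of 0 are left out. PBM shares are the higher ones at sums from 1 to 19, and at a sum of 20 or more the 0.207% of PBM T cells lies below the 0.320% of control T cells with overlapping intervals.

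CD4 and CD8 T cells both contributed members. T cells that held Cd8a or Cd8b1 UMIs but none of Cd4 made up 55.1% of PBM members (51.3 to 58.9) and 54.3% of control members (41.9 to 66.3), against 51.6% and 45.6% of sum-0 T cells. T cells that held Cd4 UMIs but none of Cd8a or Cd8b1 made up 15.1% of PBM members and 18.6% of control members, against 15.7% and 17.5% of sum-0 T cells. Read the other way, 10.4% of CD8-gated T cells (9.39 to 11.4) and 9.90% of CD4-gated T cells (8.15 to 11.9) were members in the PBM library. In the control library these shares were 2.65% (1.89 to 3.62) and 2.34% (1.25 to 3.97). In neither library did the CD4 and CD8 gates separate beyond their intervals.

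T cells with a UMI of Foxp3, the factor that defines regulatory T cells, were members in 13.0% of cases in the PBM library (10.2 to 16.2) and in 1.87% in the control library (0.900 to 3.41). T cells with a UMI of Ncr1 or Klrb1c, receptors of natural killer cells, were members in 6.90% of cases in the PBM library (4.14 to 10.7) and 1.85% in the control library (0.930 to 3.29), although their median depth, 7218 and 10403 UMIs, was above that of all T cells in both. The gates are coarse in the PBM library, where 30.3% of cells in a B cell gate held a Cd8a or Cd8b1 UMI and 3.32% a Cd4 UMI, against 68.4% and 32.6% of sum-0 T cells. That B cell gate took cells with at least 0.1% of UMIs from Cd79a, Cd79b and Ms4a1, no Cd3 UMI and under 0.1% of UMIs from C1q genes.

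In the PBM library cells of a B cell gate held the marker genes at a level near that of T cells, and the few NK-gated cells at a lower one. Summed over the 4 genes, the level was 125 CPM in PBM T cells (121.5 to 128) and 112 in the 2110 cells of the PBM B cell gate (105 to 119), against 31.5 in control T cells (29.6 to 33.4) and 29.5 in the 173 cells of the control B cell gate (16.5 to 48.6). Of the PBM B-gated cells, 4.50% (3.66 to 5.48) had at least 3 marker UMIs at a median depth of 3942.5 UMIs, and of the control B-gated cells 1 of 173 did. Thinned to 1000 UMIs, 9.05% of PBM B-gated cells (7.86 to 10.4) held at least 1 marker UMI, close to the 10.0% of PBM T cells. In the control library 0 of 173 B-gated cells did after thinning, which allows a share of up to 1.73% by the limit of 3 counts and 2.11% by the exact binomial interval. Cells with at least 2 UMIs of NK genes, no Cd3 UMI and few C1q or B cell UMIs had 21.7 CPM of the marker genes in the PBM library (4.48 to 63.4, 45 cells, 0 of them with at least 3 marker UMIs) and 21.0 in the control library (17.0 to 25.6, 684 cells). C1q-positive cells without Cd3 UMIs, a macrophage gate, numbered 12 in the PBM library and 1640 in the control library, where 3.05% (2.27 to 4.00) had at least 3 marker UMIs. No cell type that should lack these transcripts is at hand, and the part of free RNA in these shares was not tested.

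**Figure D2:**
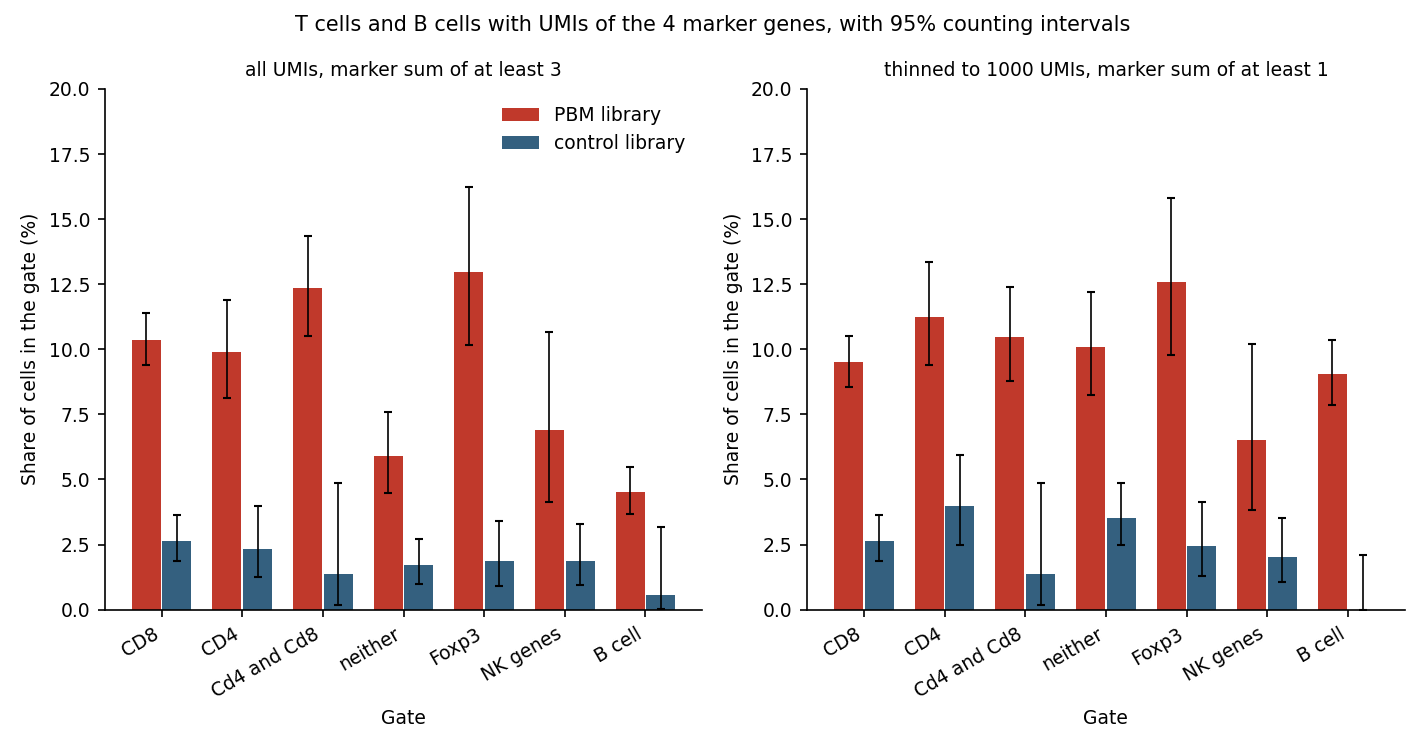
Share of cells in percent with at least 3 marker UMIs at full depth (left) and with at least 1 after thinning each cell to 1000 UMIs (right), by gate, in the PBM library (red) and the control library (blue), with exact binomial 95% intervals. Over the 7 gates drawn, which leave out the macrophage and NK gates, the PBM bars at full depth run from 4.50% in the B cell gate to 13.0% in Foxp3-positive T cells, and the control bars from 0.578% in the B cell gate to 2.65% in CD8-gated T cells.

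Beyond the 4 marker genes, members carried a wide type I interferon programme in both libraries. Isg15 and Usp18 stood in front, beside Ifit3b, a near copy of the marker gene Ifit3 that is not independent of the selection. Over genes with a mean of at least 20 CPM over both sets and at least 20 UMIs in all, 45 of 4689 genes (0.96%) were at least 2-fold higher and 3 (0.064%) at least 2-fold lower in PBM members than in PBM sum-0 T cells. Among control cells 185 of 5436 genes (3.4%) were at least 2-fold higher and 84 (1.55%) at least 2-fold lower. Of the 45 PBM genes, 38 (84.4%) were also among the 185 of the control library, of which they make up 20.5%. Of the 45, 40 (88.9%) belong to the lists of type I interferon genes or immunity GTPases, against 76 (41.1%) of the 185. The 5 PBM genes outside both lists were A330040F15Rik, Apoe, Hsh2d, Jaml and Samd9l. Both comparisons give a median log2 ratio over all genes tested close to 0, at -0.01 in the PBM library and -0.05 in the control library. At any size, 2122 genes were higher and 2567 lower in PBM members, and 2417 were higher and 3019 lower in control members.

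ISG15 is attached to other proteins in interferon-treated cells, and USP18 takes it off again and dampens the interferon receptor. Isg15 had 494 CPM (476 to 512) in PBM members and 64.5 (61.6 to 67.5) in PBM sum-0 T cells, a log2 ratio of 2.94 (2.85 to 3.02). The control library gave 708 CPM (656 to 762) in control members and 32.9 (30.8 to 35.1) in control sum-0 T cells, a log2 ratio of 4.43 (4.28 to 4.57). An Isg15 UMI was seen in 74.9% of PBM members and 22.7% of PBM sum-0 T cells, and in 88.6% of control members and 17.7% of control sum-0 T cells. Isg15 was seen more often in members in both libraries, and the order held after thinning to 1000 UMIs, with 30.7% and 5.73% in the PBM library and 48.6% and 4.26% in the control library. Usp18 had 83.6 CPM (76.4 to 91.3) in PBM members and 15.3 (13.9 to 16.8) in PBM sum-0 T cells, a log2 ratio of 2.45 (2.26 to 2.64). Control Usp18 stood at 62.3 CPM (47.6 to 80.0) in control members and 4.06 (3.34 to 4.88) in control sum-0 T cells, a log2 ratio of 3.94 (3.47 to 4.40). Of the 5 genes listed for ISG15 conjugation, 4 passed the floor in each library and all 4 were higher in members, with medians of 1.94 (PBM) and 3.04 (control).

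Antiviral effectors were the largest group among the leading genes. Of 36 listed genes, 22 passed the floor in the PBM library, 21 of them were higher in members, 14 at least 2-fold, and the median log2 ratio was 1.19. Of the same genes 24 passed in the control library, all 24 were higher, 19 at least 2-fold, with a median of 1.98. Ifit3b, a near copy of the marker gene Ifit3, had 42.9 CPM (37.8 to 48.5) in PBM members and 5.35 (4.53 to 6.28) in PBM sum-0 T cells, a log2 ratio of 3.00 (2.71 to 3.30). Its RefSeq promoter window is identical to that of Ifit3, and the counting may split reads between the copies, so its ratio is uncertain and not independent of the selection. Oas3, which makes the second messenger that activates RNase L, had 64.7 CPM (58.4 to 71.5) in PBM members and 16.7 (15.2 to 18.3) in PBM sum-0 T cells, a log2 ratio of 1.95 (1.76 to 2.15). Control Oas3 stood at 43.9 CPM in control members and 7.28 in control sum-0 T cells (log2 ratio 2.59). Isg20, an exonuclease, had 140 CPM in PBM members against 37.4 in PBM sum-0 T cells (log2 ratio 1.91), and 269.5 in control members against 69.9 in control sum-0 T cells (1.95). Rtp4, a regulator of interferon responses in the mouse, had 144 CPM in PBM members against 43.5 in PBM sum-0 T cells (log2 ratio 1.73), and 106 in control members against 10.6 in control sum-0 T cells (3.32). Bst2 (tetherin), which holds budding virus at the cell surface, had 216 CPM in PBM members against 113 in PBM sum-0 T cells (log2 ratio 0.94), and 390 in control members against 96.8 in control sum-0 T cells (2.01). Ifi27l2a, a small interferon-induced protein, had 1934 CPM in PBM members against 1194 in PBM sum-0 T cells (log2 ratio 0.70), and 757 in control members against 332 in control sum-0 T cells (1.19). The groups separated for each of these genes in both libraries. Ifi27 was the antiviral gene below 0, with 129 CPM in PBM members and 145 in PBM sum-0 T cells (log2 ratio -0.16).

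**Figure D3:**
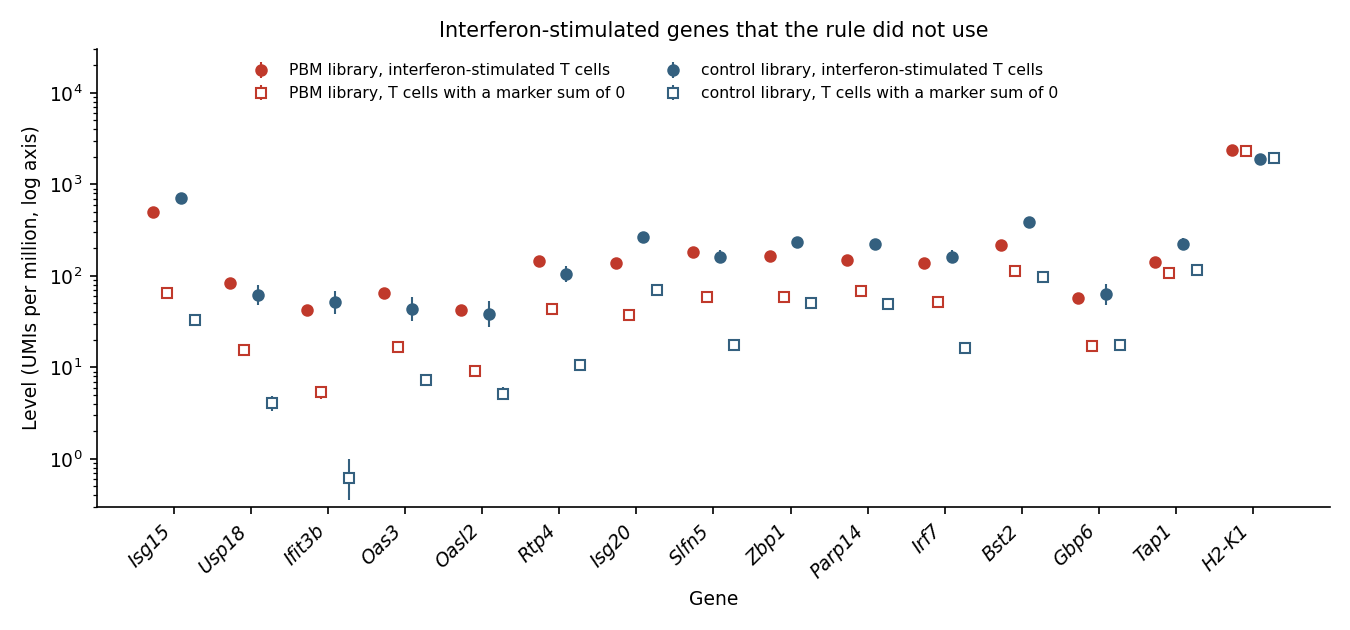
Level in CPM (log axis) of 15 interferon-stimulated genes that the selection did not use, in members (filled circles) and sum-0 T cells (open squares) of the PBM library (red) and the control library (blue), with exact Poisson 95% intervals. Isg15 stands at 494 in PBM members and 64.5 in PBM sum-0 T cells, and H2-K1 at 2356 and 2310.

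Sensors of the pathway and most of its transcription factors were also higher. Of the STAT and IRF genes 8 passed the floor in each library, and 7 of these were higher in members. At least 2-fold higher were 2 in the PBM library and 5 in the control library, with medians of 0.44 and 1.18. Among nucleic acid sensors 6 genes passed the floor in the PBM library and 5 in the control library, all were higher in members, and 4 and 3 were at least 2-fold higher. Zbp1, a sensor of Z-form nucleic acid, had 167 CPM in PBM members against 58.3 in PBM sum-0 T cells (log2 ratio 1.51), and 237 in control members against 50.1 in control sum-0 T cells (2.24). Dhx58 (LGP2), a regulator of the RIG-I family, had 40.2 CPM in PBM members against 12.6 in PBM sum-0 T cells (log2 ratio 1.68), and 42.9 in control members against 6.27 in control sum-0 T cells (2.78). Irf7, which amplifies interferon production, had 139 CPM (130 to 149) in PBM members and 52.0 (49.3 to 54.7) in PBM sum-0 T cells, a log2 ratio of 1.42 (1.30 to 1.55). Control Irf7 stood at 162 CPM (138 to 189.6) in control members and 16.3 (14.8 to 17.8) in control sum-0 T cells, a log2 ratio of 3.32 (3.05 to 3.58). Stat2, a factor of the pathway, had 43.1 CPM in PBM members against 15.9 in PBM sum-0 T cells (log2 ratio 1.44), and 86.8 in control members against 15.7 in control sum-0 T cells (2.47). Irf9, the DNA-binding subunit named above, had 84.5 CPM in PBM members against 58.8 in PBM sum-0 T cells (log2 ratio 0.52), and 46.0 in control members against 21.6 in control sum-0 T cells (1.09). These ratios were smaller than that of Isg15 in each library. Irf8, a factor of myeloid and B cells as well as T cells, had 40.9 CPM in PBM members against 44.9 in PBM sum-0 T cells (log2 ratio -0.14), and 225 in control members against 204 in control sum-0 T cells (0.14), with the 2 libraries on either side of 0.

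The PARP, Schlafen and p200 families followed the same direction. PARP genes and Dtx3l, which modify proteins with ADP-ribose or ubiquitin, were higher for 4 of 4 genes above the floor in each library, with medians of 1.08 (PBM) and 1.88 (control). Slfn5, a member of the Schlafen family, had 185 CPM in PBM members against 59.2 in PBM sum-0 T cells (log2 ratio 1.64), and 162 in control members against 17.5 in control sum-0 T cells (3.22). All 4 Schlafen genes above the floor in the PBM library and all 5 in the control library were higher in members. The p200 family holds DNA-binding proteins, and 10 of 10 of its genes and SP100 relatives above the floor were higher in the PBM library and 12 of 12 in the control library. Ifi206 had 206 CPM in PBM members against 83.9 in PBM sum-0 T cells (log2 ratio 1.30), and 98.0 in control members against 15.7 in control sum-0 T cells (2.64). Ifi204, found in myeloid cells too, was low in the PBM library, at 5.57 CPM in members and 1.49 in sum-0 T cells, and had 114 CPM in control members and 12.1 in control sum-0 T cells (log2 ratio 3.24).

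Over the whole list of 126 type I interferon genes outside the selection, 119 were listed by symbol in the files and the other 7 are not used here. In the PBM library 87 passed the floor, of which 82 were higher, 36 at least 2-fold, and 5 lower, with a median of 0.88, and below the floor 31 were higher and 1 lower. For the control library 91 passed, of which 86 were higher, 64 at least 2-fold, and 5 lower, with a median of 1.48, and below the floor 26 were higher and 2 lower. Because the floor uses the mean of both sets, a gene high in members alone could pass it.

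Most genes shared with interferon gamma were higher in members too. Guanylate-binding proteins and related GTPases, which attack the vacuoles of intracellular microbes, were higher for 10 of 10 genes above the floor in the PBM library, 4 at least 2-fold, and for 12 of 12 in the control library, all 12 at least 2-fold. Their medians were 0.99 (PBM) and 1.61 (control). Gbp6 had 57.8 CPM in PBM members against 17.3 in PBM sum-0 T cells (log2 ratio 1.74), and 63.3 in control members against 17.5 in control sum-0 T cells (1.86). Irgm1, which acts on membranes and autophagy, had 97.1 CPM in PBM members against 48.8 in PBM sum-0 T cells (log2 ratio 0.99), and 173 in control members against 40.2 in control sum-0 T cells (2.10). MHC class I and peptide-loading genes were higher for 19 of 19 genes in the PBM library (median 0.26), and for 18 of 19 in the control library with 0.45. Tap1, part of the peptide transporter, had 141 CPM in PBM members against 108 in PBM sum-0 T cells (log2 ratio 0.38), and 226 in control members against 116 in control sum-0 T cells (0.96). H2-K1, a classical heavy chain, had 2356 CPM in PBM members against 2310 in PBM sum-0 T cells (log2 ratio 0.03), and 1910 in control members against 1965 in control sum-0 T cells (-0.04).

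Receptor and kinase genes of the pathway stayed within 2-fold in both libraries, and type I interferon transcripts were not seen, while Ifng was lower in control members. Ifnar1 had 35.0 CPM in PBM members against 31.8 in PBM sum-0 T cells (log2 ratio 0.14), and 35.7 in control members against 37.2 in control sum-0 T cells (-0.06). The kinase gene Jak1 had 409 CPM in PBM members against 422 in PBM sum-0 T cells (log2 ratio -0.05), and 214 in control members against 239 in control sum-0 T cells (-0.16). Socs1, a feedback inhibitor, had 57.9 CPM in PBM members against 36.5 in PBM sum-0 T cells (log2 ratio 0.67), and 151 in control members against 74.8 in control sum-0 T cells (1.02). Of the type I and type III interferon genes listed in the files, Ifna4, Ifnb1, Ifnk and Ifnl2 had 0 UMIs in members and sum-0 T cells of both libraries, which allows up to 0.507 and 3.06 CPM in PBM and control members. Ifng, the interferon made by T and NK cells, was at 3.89 CPM in PBM members and 4.11 in PBM sum-0 T cells. Control Ifng stood at 40.8 CPM (29.2 to 55.6) in control members and 234 (229 to 240) in control sum-0 T cells, a log2 ratio of -2.52 (-3.01 to -2.07).

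**Figure D4:**
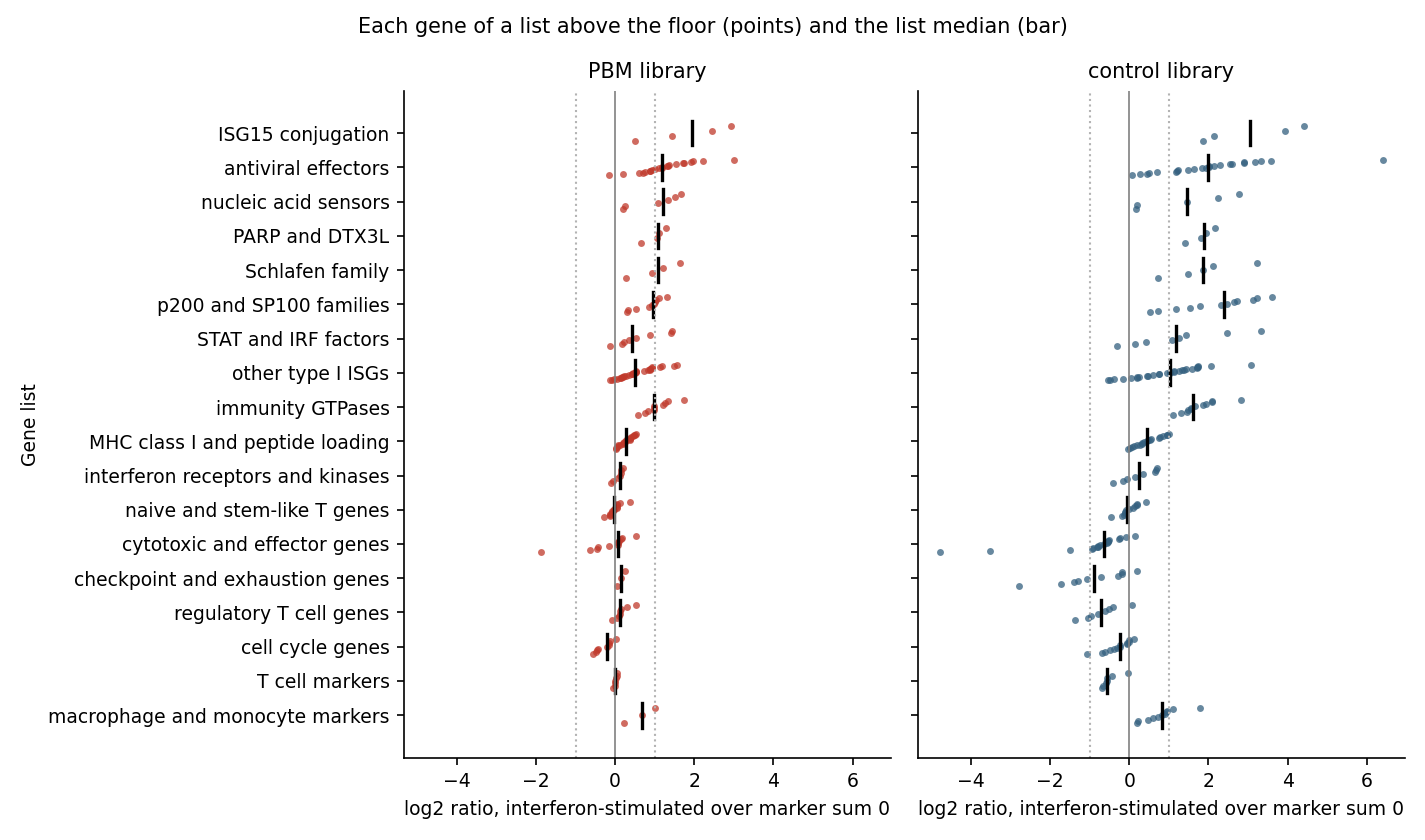
Log2 ratio of members over sum-0 T cells (horizontal axis) for each gene above the floor (points) and the median (black bar) of each gene list (vertical axis), in the PBM library (left) and the control library (right). Dotted lines mark a 2-fold difference. The interferon lists lie to the right of 0 in both panels, and the cytotoxic list has a median of 0.07 in the PBM library and -0.63 in the control library.

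Isg15, Irf7 and Bst2 stood higher at each higher class of marker sum. In T cells with sums of 0, 1 to 2, 3 to 5 and 6 or more, Isg15 stood at 64.5, 119, 304 and 859 CPM in the PBM library and at 32.9, 101, 304 and 1252 in the control library. Irf7 stood at 52.0, 67.3, 119.7 and 177 in the PBM library and at 16.3, 28.3, 71.1 and 285 in the control library. Bst2 stood at 113, 133, 200.3 and 247 in the PBM library and at 96.8, 132, 295 and 518 in the control library. Each of these genes was higher in each class than in the class below it, in both libraries. At sums of 3 to 5 the Isg15 intervals of the PBM library (287 to 322) and the control library (260 to 353) overlapped, and at 6 or more those of the PBM library (819 to 900) and the control library (1147 to 1364) did not. Gbp6 did not follow in the control library, where it stood at 17.5, 18.6, 65.8 and 60.0, the last 2 with overlapping intervals. Interferon genes outside the selection summed to 12250, 13530, 16830 and 21230 CPM in the PBM library and to 11380, 11240, 16270 and 27200 in the control library, where the lowest classes stood in the other order. H2-K1 showed no such order, with 2310, 2260, 2374 and 2323 in the PBM library.

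**Figure D5:**
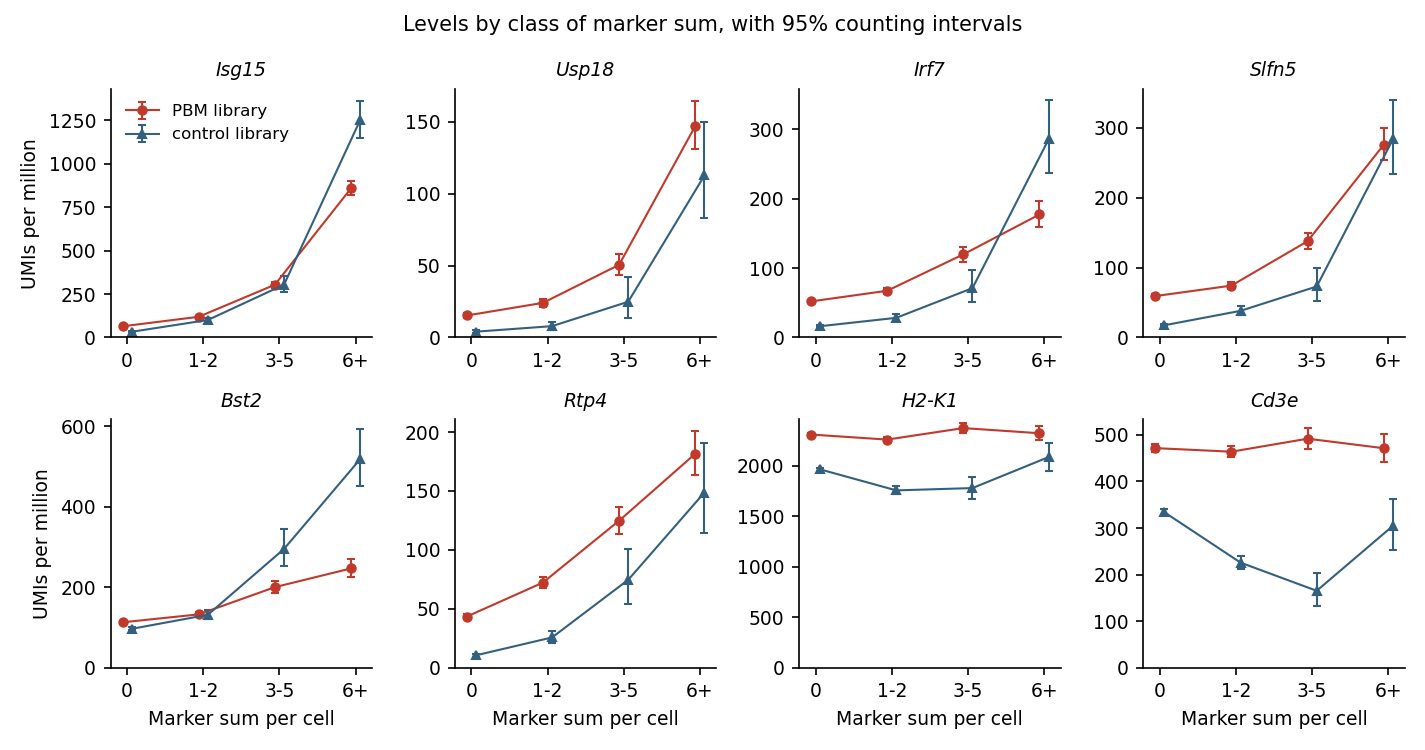
Level in CPM (vertical axes) of 8 genes by class of marker sum (horizontal axes) in T cells of the PBM library (red circles) and the control library (blue triangles), with exact Poisson 95% intervals. Isg15 reaches 859 in the PBM library and 1252 in the control library at sums of 6 or more, while Cd3e stays between 464 and 492 in the PBM library and is lowest, at 165, at sums of 3 to 5 in the control library.

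T cell markers that the selection did not use check the label. Trac, the constant segment of the T cell receptor alpha chain, had 604 CPM in PBM members against 605 in PBM sum-0 T cells (log2 ratio 0.00), and 245 in control members against 369 in control sum-0 T cells (-0.59). Trbc2, Cd247 and Lat, the other T cell markers that are not Cd3 genes, had log2 ratios of -0.01, -0.04 and 0.03 in the PBM library and -0.67, -0.43 and -0.04 in the control library. Macrophage and monocyte markers, 12 in all, summed to 409 CPM in PBM members and 315 in PBM sum-0 T cells, and to 5097 in control members and 3055 in control sum-0 T cells. In the control library 11 of the 12 passed the floor and all 11 were higher in members, and in the PBM library 3 passed and all 3 were higher. The 12 include C1qa, C1qb and C1qc, which the selection capped in members and sum-0 T cells alike, so their levels do not check the label. Lyz2, lysozyme of myeloid cells, had 85.8 CPM in PBM members against 53.3 in PBM sum-0 T cells (log2 ratio 0.69), and 2395 in control members against 1578 in control sum-0 T cells (0.60). Without barcodes in which 9 macrophage and monocyte genes gave at least 0.5% of UMIs, 669 PBM and 57 control members were left. The log2 ratio of Lyz2 was then 0.22 (PBM) and -0.03 (control), and that of Isg15 was 2.92 and 4.61. For control Trac the ratio was -0.42 then, but -0.85 without barcodes with Ncr1 or Klrb1c UMIs and -0.93 within CD8-gated cells. Under these 3 settings control Trbc2 stood at -0.48, -0.81 and -1.31. Control Lyz2 stood at 0.66 without Ncr1 or Klrb1c barcodes and at 1.36 within CD8-gated cells. B cell markers summed to 3156 in PBM members and 3265 in PBM sum-0 T cells, and to 3518 and 1529 in the control library, where Cd74 and H2-Aa, also made by myeloid cells, gave most of it and Ms4a1 and Fcmr had 0 UMIs in members. Cd79a, Cd79b and Ms4a1 are part of these sums but were capped by the selection in both sets, so the 0 UMIs of Ms4a1 are no result. NK cell markers summed to 173 and 273 in the PBM library and to 1826 and 1536 in the control library, members given before sum-0 T cells. The control sum does not stand for the single genes. Of 5 NK markers above the floor there, 2 were higher and 3 lower in members, 2 of these at least 2-fold, with a median of -0.99. Ncr1 had 7.15 CPM in control members and 37.6 in control sum-0 T cells (log2 ratio -2.40).

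Genes of T cell state differed little between members and sum-0 T cells in the PBM library. Of 15 naive and stem-like genes 6 were higher and 9 lower, with a median of -0.03, and none was past 2-fold. Tcf7, a factor of naive and memory-like T cells, had 417 CPM in PBM members against 456 in PBM sum-0 T cells (log2 ratio -0.13), and 67.4 in control members against 61.5 in control sum-0 T cells (0.13). Of 12 cytotoxic genes above the floor 7 were higher and 5 lower in PBM members. Gzma, a granzyme of killer cells, had 42.7 CPM (37.6 to 48.3) in PBM members and 157 (152 to 161) in PBM sum-0 T cells, a log2 ratio of -1.87 (-2.06 to -1.69). A Gzma UMI was seen in 12.0% of PBM members and 11.1% of PBM sum-0 T cells, so the shares differ less than the levels. NK genes were lower too, with Ncr1 at 2.70 CPM in PBM members and 9.43 in PBM sum-0 T cells. Without barcodes with Ncr1 or Klrb1c UMIs, which left 659 PBM members, Gzma stood at 24.4 CPM in PBM members and 24.2 in PBM sum-0 T cells, a log2 ratio of 0.01 (-0.26 to 0.28). Within CD8-gated cells, where such barcodes were kept, it was -2.06. Cell cycle genes were lower for 8 of 9 genes, with a median of -0.20, beside 2567 of 4689 lower over all genes tested. Mki67, a protein of dividing cells, had 22.8 CPM in PBM members and 32.1 in PBM sum-0 T cells (log2 ratio -0.49).

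In the control library the summed levels of most effector genes were lower in members. Over all genes tested, 3019 of 5436 were lower there. Of 19 cytotoxic genes above the floor 18 were lower, 3 of them at least 2-fold, with a median of -0.63. Gzmc, a granzyme of strongly activated killer cells, had 76.6 CPM (60.2 to 96.0) in control members and 877 (866 to 888) in control sum-0 T cells, a log2 ratio of -3.52 (-3.86 to -3.19). Gzmf, of the same gene cluster, had 18.4 CPM in control members and 503 in control sum-0 T cells (log2 ratio -4.77). The shares of cells with a UMI went the other way for both genes, while members had the higher median depth. A Gzmc UMI was seen in 50.0% of control members and 41.95% of control sum-0 T cells, and a Gzmf UMI in 24.3% and 17.85%. For Gzme, of the same cluster, the share was lower in control members, at 1.43% against 6.15%. Gzmb, the granzyme common to most killer cells, had 47.5 CPM in PBM members against 33.0 in PBM sum-0 T cells (log2 ratio 0.52), and 307 in control members against 513 in control sum-0 T cells (-0.74). Of 10 checkpoint and exhaustion genes 9 were lower, 5 at least 2-fold, among them Pdcd1 (PD-1), which had 31.7 CPM in control members and 77.0 in control sum-0 T cells (log2 ratio -1.28). Regulatory T cell genes were lower for 7 of 8 genes, and Foxp3 itself had 38.5 CPM in PBM members against 26.6 in PBM sum-0 T cells (log2 ratio 0.53), and 44.9 in control members against 64.4 in control sum-0 T cells (-0.52). Trac, Trbc2 and Cd247 were lower in the same members. Without barcodes with Ncr1 or Klrb1c UMIs, which left 59 control members, Gzmc stood at 60.6 CPM in control members and 133 in control sum-0 T cells, a log2 ratio of -1.14 (-1.58 to -0.73). In the same cells the control ratio was -3.27 for Gzmf, -1.31 for Gzmb, -2.87 for Ifng and -0.96 for Foxp3. Without the macrophage-rich barcodes the control log2 ratio was -3.66 for Gzmc, -2.38 for Ifng and -0.15 for Foxp3.

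Between libraries, PBM members were set against control members, with the same contrast in sum-0 T cells beside it. In members 369 of 5142 genes (7.18%) were at least 2-fold higher and 884 (17.2%) at least 2-fold lower in the PBM library. In sum-0 T cells 237 of 5184 (4.57%) were at least 2-fold higher and 746 (14.4%) lower. At any size, 2141 genes were higher and 3001 lower in members, and 1972 higher and 3212 lower in sum-0 T cells. Interferon genes were close to even in members, with 45 of 102 higher and 57 lower and a median log2 ratio of -0.09, beside -0.15 over all genes. That direction flips with the scaling, to 0.19 with TMM factors and 0.15 with median-of-ratios factors, which raise every ratio by 0.28 and 0.24. In sum-0 T cells 53 of 71 interferon genes were higher in the PBM library and 18 lower, with a median of 0.52, beside -0.18 over all genes. Isg15 had a log2 ratio of -0.52 (-0.64 to -0.40) in members and 0.97 (0.86 to 1.09) in sum-0 T cells. Irf7 had -0.22 (-0.47 to 0.03) in members, which TMM factors turn to 0.06, and 1.68 (1.52 to 1.83) in sum-0 T cells. Slfn5 had 0.19 (-0.05 to 0.44) in members and 1.76 (1.61 to 1.91) in sum-0 T cells. For these genes the libraries stood closer together, or in the other order, in members than in sum-0 T cells, and the difference between the 2 contrasts was not tested. Members of both libraries had passed the same marker minimum, so their closeness in interferon genes is not independent of the selection.

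Genes of T cell state separated the libraries in members and in sum-0 T cells alike. Naive and stem-like genes were higher in PBM members for 15 of 15 genes, 13 at least 2-fold, with a median of 2.28, and for 14 of 14 in sum-0 T cells with 2.10. Tcf7 had 2.63 (2.28 to 3.01) in members and 2.89 (2.82 to 2.96) in sum-0 T cells. Dapl1, a transcript of naive-like CD8 T cells, had 5.69 (4.81 to 6.75) in members. Cytotoxic genes were lower in PBM members for 16 of 16 genes, 11 at least 2-fold, with a median of -1.90, and for 19 of 19 in sum-0 T cells with -2.27. Gzmb had -2.70 (-2.93 to -2.46) in members and -3.96 (-4.06 to -3.86) in sum-0 T cells. Among the 10 genes with the largest ratios towards the PBM library, Dapl1 stood beside the B cell genes Fcmr, Ms4a1, Cd79a and Cd79b, of which all but Fcmr were capped by the selection, so their levels are no result. The 10 with the largest ratios towards the control library were at 0 UMIs in PBM members, among them Sparc, Timp3 and Mmp2 of connective tissue. Sparc stood at 643 CPM in control members and 465 in control sum-0 T cells, and the part of such RNA in the contrast between libraries was not tested.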

How the data were processed

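Single-cell RNA libraries of CD45-sorted cells, 1 PBM and 1 control, were read from the gene by barcode matrices that the authors deposited, whose values are raw UMI counts. The submitters' processing notes name Cell Ranger 7.2.0 and the mm10 build, and the matrix headers name PISA 0.12; how the 2 relate is not given in the sources used here. A filter on cells is not given in the sources used here, and every deposited barcode was used. The members, gene lists and comparisons were chosen with earlier results of these data known. Counts were summed per library and cell set and divided by the set's total to give CPM (UMIs per 1000000). Intervals for levels are exact Poisson, those for shares exact binomial (Clopper-Pearson) and those for log2 ratios exact conditional binomial, all at 95%. Genes were compared where both feature files list them, with a mean of at least 20 CPM over the 2 sets and at least 20 UMIs in all, and "at least 2-fold" means a log2 ratio of 1 or more either way. A count of 0 allows up to 3 counts. Named are list genes and the 10 genes with the largest ratio in each direction whose intervals do not overlap, leaving out the 4 marker genes, antigen receptor segments and ribosomal protein genes. Doublets were not removed; Scrublet marked 880 PBM barcodes (6.30%) and 109 control barcodes (0.970%) and served as an alternative. Thinning drew 1000 UMIs per cell without replacement. The scripts were tested on simulated counts and used Python 3.11, scanpy 1.11.5, numpy 2.4.6, scipy 1.17.1, R 4.3.3 and edgeR 4.0.16 (TMM factors only). Alternatives covered the marker and Cd3 minimums, each marker gene, the filters on other cell types, doublets, CD4 and CD8 gates, depth and scaling.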

Additional observations from a re-analysis of the deposited data

Results flagged for a closer look

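For 11 listed genes the log2 ratio of members over sum-0 T cells lay above 0 in one library and below 0 in the other, with intervals that left out 0 in both. Each group is 1 library, so the difference was not tested. Among T cell genes, the PBM ratio minus the control ratio was 0.90 for Cd8a (0.25 in the PBM library and -0.65 in the control library), 0.45 for Cd8b1 (0.22 and -0.24), 1.05 for Foxp3 (0.53 and -0.52), 0.78 for Tnfrsf18 (0.15 and -0.62) and 1.27 for Tnfrsf9 (0.30 and -0.97), PBM given first in each pair. Among cytotoxic genes it was -2.02 for Gzma (-1.87 and 0.14), 1.26 for Gzmb (0.52 and -0.74), 0.88 for Nkg7 (0.10 and -0.78) and 0.71 for Cst7 (0.14 and -0.56). For the factors Stat3 and Junb it was 0.49 (0.18 and -0.31) and -0.33 (-0.16 and 0.17). Without barcodes with Ncr1 or Klrb1c UMIs the Gzma ratio was 0.01 (-0.26 to 0.28) in the PBM library and 0.80 in the control library, so the opposite signs did not hold there, while Gzmb kept them, at 0.93 and -1.31. Within CD8-gated cells the ratio of Gzma was below 0 in both libraries, at -2.06 (PBM) and -1.44 (control), and that of Gzmb was -0.29 (-0.71 to 0.11) in the PBM library and -1.93 in the control library. A Foxp3 UMI was seen in 10 of the 70 control members. With macrophage-rich barcodes left out, 2 ratios had intervals that held 0. These were control Foxp3, at -0.15 (-0.62 to 0.28), and PBM Tnfrsf9, at 0.13 (-0.11 to 0.37). Cd8a, Gzma, Gzmb and Nkg7 kept their opposite signs there. Trac, Trbc2 and Cd247 were lower and macrophage markers higher in control members than in control sum-0 T cells, and their part in the other differences was not tested.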

How the results depend on the processing

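No paired analysis was possible because each group has 1 library. Over all alternatives 726 single-gene or list values and 102 main ones stayed within the interval of the reported value (for list medians, the spread of the middle genes) or, for counts, within 1.5 times, and 156 and 50 moved further. The sign changed 64 times, 54 times where the interval of the reported value held 0 and 10 times where it did not. The member share of T cells, 10.0% in the PBM library, became 16.5% with at least 2 marker UMIs, 4.30% with at least 5, 6.12% with no UMI of the 6 filter genes, 5.06%, 5.71%, 9.29% and 8.50% without Ifit1, Ifit3, Rsad2 and Oasl1, 1.94% with 2 UMIs after thinning, and 6.89% with at least 0.05% of UMIs. The control share, 2.24%, became 3.52%, 1.28% and 1.20% under the first 3 of these, 1.47% and 1.57% without Ifit1 and Ifit3, and 0.832% and 3.10% with 2 and 1 UMIs after thinning. The PBM share stayed above the control share in each. The median over interferon genes, 0.88 in the PBM library and 1.48 in the control library, became 1.13 and 2.13 with at least 5 marker UMIs, 1.23 in the control library with at least 2, and 1.90 there as a mean over cells. Genes at least 2-fold higher in PBM members, 45, became 27 with at least 2 marker UMIs, 74 with at least 5, 168 with no filter-gene UMI (61 members), 97 in CD4-gated cells and 1441 without the floor. The 3 lower genes became 6 with at least 5 marker UMIs, 151 with no filter-gene UMI, 12 with sum-0 cells weighted by depth, 23 in CD4-gated cells, 631 without the floor and 1 without barcodes with Ncr1 or Klrb1c UMIs. The 185 higher control genes became 299 with at least 5, 1165 with no filter-gene UMI (10 members), 360 in CD8-gated and 752 in CD4-gated cells (13 members), and 1542 without the floor. The 84 lower ones became 209, 841, 236, 761 and 1079 under the same settings, 154 and 143 without Ifit1 and Ifit3, 189 as a mean over cells, and 128 without Ncr1 or Klrb1c barcodes. Between members of the 2 libraries the interferon median, -0.09, became -0.38 with at least 4 Cd3 UMIs, -0.50 with no filter-gene UMI, -0.53 as a mean over cells, 0.0241 with at least 2 marker UMIs, 0.19 with TMM and 0.15 with median-of-ratios factors, the last 3 on the other side of 0. The 10 sign changes named above were the PBM checkpoint median, -0.19 with no filter-gene UMI and -0.0064 as a mean over cells; the control cell cycle median, 0.19 with at least 4 Cd3 UMIs, 0.0007 without macrophage-rich and 0.0611 without Ncr1 or Klrb1c barcodes; the control macrophage marker median, -0.61 with no filter-gene UMI; Usp18 between members, -0.0769, -1.26 and -0.47 with at least 4 Cd3 UMIs, no filter-gene UMI and as a mean over cells; and T cell markers between sum-0 T cells, -0.054 with no filter-gene UMI. The settings without macrophage-rich and without Ncr1 or Klrb1c barcodes were chosen after seeing the data, and the cause of these shifts was not tested. With no filter-gene UMI the control checkpoint median had no finite value. A gene at 0 UMIs in the 70 control members may still stand at up to 3.06 CPM there.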
